A study of Homo sapiens with 8 samples.

Results

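The enzymes described here make and tie together collagen fibers. They are the lysyl oxidase family (LOX and LOXL1 to LOXL4), the lysyl hydroxylases (PLOD1 to PLOD3) and the catalytic subunits P4HA1 and P4HA2 of the collagen prolyl hydroxylase. They were taken by gene symbol, with no measured value in the rule, and all 10 symbols were found among the 21059 genes measured. The genes were quantified by RNA sequencing in MDA-MB-157, an estrogen receptor-negative human breast cancer cell line with mesenchymal features. Cells conditioned in low glucose were kept for 48 hours in serum-free medium with 5 mM glucose (low glucose, replicates LG1 to LG4) or 25 mM glucose (high glucose, replicates HG1 to HG4). The question was how a raised glucose supply changes transcript levels in cells of 1 line, with no library from an osmotic control among the 8. Nothing in the labels says that the 4 replicates of a group were separate cultures, so p-values measure the spread between these libraries, which may be technical.

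A collagen chain is modified while it is being made and again after it leaves the cell. In the endoplasmic reticulum, prolyl hydroxylases convert prolines so that the triple helix is stable at body temperature, and lysyl hydroxylases convert lysines of the helix and of the chain ends. Both use iron, 2-oxoglutarate, oxygen and ascorbate. Outside the cell, the copper enzymes of the lysyl oxidase family oxidize lysines and hydroxylysines, which then form the covalent crosslinks that stiffen matrix. Several of these genes are textbook targets of the hypoxia-inducible factors (HIFs), among them LOX, LOXL2, PLOD1, PLOD2, P4HA1 and P4HA2.

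Transcript levels are given as TMM-scaled CPM, read counts brought to a library of 1000000 reads. Log2 changes are differences of mean log2(CPM + 1), high minus low glucose, and an adjusted p under 0.05 in limma over all genes was the threshold. Of the 10 enzymes, 3 rose at high glucose (LOX, PLOD2 and P4HA1), 5 fell (LOXL1, LOXL2, LOXL3, PLOD1 and P4HA2) and 2 did not pass (PLOD3 and LOXL4). Each of the 3 families thus held members that rose and members that fell. Across all genes, 46.8% passed, with 22% higher and 24.8% lower, and among the 11297 genes with a mean of at least 5 CPM, where 9 of the 10 enzymes lie, 66.9% passed, 33.6% higher and 33.3% lower. The groups did not overlap for 8 of the 10 enzymes, against 44.5% of all genes and 65% of those with a mean of at least 5 CPM. These were the same 3 higher (20.9% of all genes) and 5 lower (23.6%). The 8 are all among the 9 enzymes of that level, a larger share than 66.9% or 65%. With so few genes and no test of the count, it is not read as a result about these enzymes. In bulk RNA, fewer cells of a kind and less RNA per cell cannot be told apart.

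**Figure D1:**
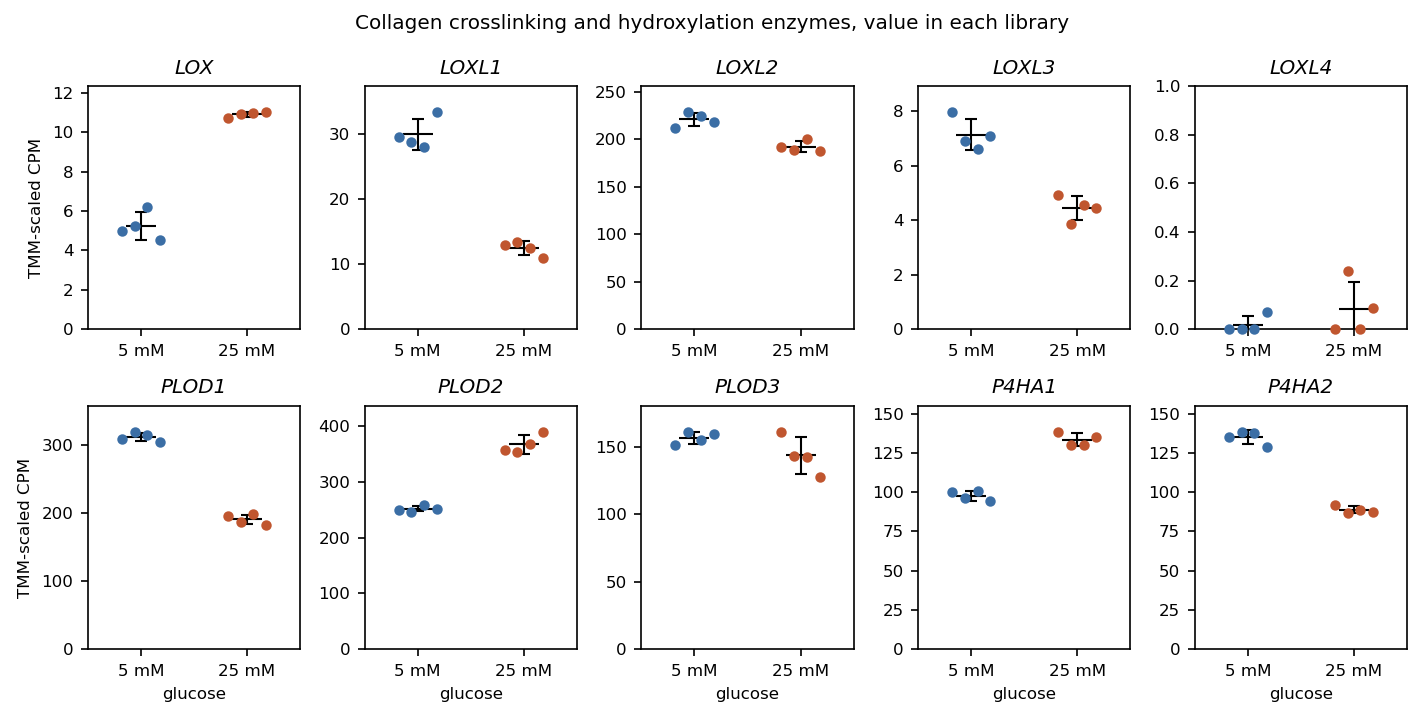
TMM-scaled CPM (linear axes from 0) of the 10 enzymes in each of the 4 libraries at 5 mM (blue) and 4 at 25 mM glucose (orange), with the mean and SD (bars). The groups are apart for all but PLOD3, where HG1 is the highest of all 8 libraries and the other high glucose libraries are below the low glucose range, and LOXL4, which stays at or below 0.239 CPM.

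The libraries had an estimated 9721648 to 12482546 reads, so that 3 reads, used as the floor, were worth 0.212 to 0.267 CPM, and 14111 to 14477 genes reached 1 CPM. HG1 stood apart along transcript length, with a rank correlation of -0.65 across genes, which are not independent, between its deviation and length, against 0.25 to 0.47 in HG2 to HG4 and -0.13 to 0.06 at low glucose. The line is named in the sample titles, and marker genes describe its libraries without identifying it. The estrogen receptor gene ESR1 was below the floor (0.121 and 0.0598 CPM), KRT8 and KRT18 were present at 131 and 233 CPM at low glucose, and the mesenchymal gene VIM was at 4091 CPM. Of 6 genes that also mark fibroblasts, 4 fell (PDGFRB, DCN, LUM and FAP) and none rose. Their summed level was 2689 to 2708 CPM in the low glucose libraries and 1243 to 1300 CPM in the high glucose libraries, while THY1 was below the floor (0.0414 and 0.0605 CPM). Of 7 epithelial markers, 1 rose and 2 fell, with sums of 360.2 to 376 and 240.3 to 306 CPM and KRT14 at 0 in all libraries. The 4 mesenchymal markers split evenly, with 2 higher (CDH2 and ZEB1) and 2 lower (VIM and FN1). Their summed level, mostly VIM and FN1, was lower at high glucose, at 7706 to 7849 CPM in the low and 5396 to 5780 CPM in the high glucose libraries. Of the leukocyte genes, PTPRC was below the floor and CD68, a macrophage marker, was at 11.1 and 12.1 CPM, with sums of 9.55 to 13.5 and 10.5 to 14.3 CPM. Of 4 endothelial markers, 2 rose and 2 fell, with sums of 3.65 to 4.17 and 4.07 to 5.42 CPM. The part of these shifts in the changes below was not tested.

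Promoter sequence is shown for the 3 members that rose and, for contrast, for PLOD1 and LOXL1, which fell most in their families, since HIFs bind the core sequence ACGTG and, more loosely, GCGTG. The 250 bases before an annotated start are given from RefSeq on GRCh38.p14, in the direction of the gene, with ACGTG and GCGTG on either strand in capitals.
P4HA1: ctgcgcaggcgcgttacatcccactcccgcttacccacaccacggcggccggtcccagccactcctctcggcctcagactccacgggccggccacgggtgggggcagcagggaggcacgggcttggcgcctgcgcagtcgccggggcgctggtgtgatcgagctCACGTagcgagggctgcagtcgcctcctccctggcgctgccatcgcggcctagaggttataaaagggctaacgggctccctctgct
PLOD2: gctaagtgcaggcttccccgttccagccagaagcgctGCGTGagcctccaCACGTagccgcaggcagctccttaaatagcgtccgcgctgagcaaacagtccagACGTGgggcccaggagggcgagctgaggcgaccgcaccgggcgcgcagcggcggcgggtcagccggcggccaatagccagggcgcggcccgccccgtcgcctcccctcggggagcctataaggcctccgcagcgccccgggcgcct
LOX: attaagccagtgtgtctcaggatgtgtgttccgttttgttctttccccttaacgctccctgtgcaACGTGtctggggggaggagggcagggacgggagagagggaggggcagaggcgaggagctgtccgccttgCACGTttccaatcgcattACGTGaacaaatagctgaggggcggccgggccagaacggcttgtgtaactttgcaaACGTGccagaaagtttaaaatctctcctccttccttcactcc
PLOD1: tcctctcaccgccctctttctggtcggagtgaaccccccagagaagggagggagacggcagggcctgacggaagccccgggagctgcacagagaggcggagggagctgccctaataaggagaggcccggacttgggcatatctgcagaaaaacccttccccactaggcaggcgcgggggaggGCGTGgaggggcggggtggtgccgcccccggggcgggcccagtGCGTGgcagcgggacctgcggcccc
LOXL1: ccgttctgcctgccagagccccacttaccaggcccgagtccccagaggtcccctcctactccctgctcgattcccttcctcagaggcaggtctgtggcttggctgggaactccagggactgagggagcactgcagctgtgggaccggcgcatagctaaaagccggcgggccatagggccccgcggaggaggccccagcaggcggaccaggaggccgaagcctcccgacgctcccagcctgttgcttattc
These windows are chr10:73096867-73097116 for P4HA1, chr3:146161185-146161434 for PLOD2 and chr5:122078260-122078509 for the outermost of the 3 LOX starts, all on the minus strand. Those of PLOD1 (chr1:11934467-11934716) and LOXL1 (chr15:73926212-73926461) are on the plus strand. ACGTG began 86 bases before the start in P4HA1, 146 and 200 bases before it in PLOD2, and 42, 98, 116 and 185 bases before it in LOX. PLOD1 had no ACGTG but GCGTG at 25 and 68 bases, PLOD2 also had GCGTG at 213 bases, and LOXL1 had neither. The window of P4HA2, which also fell, is not printed and had neither. Windows were at hand for 9 of the 10 enzymes, LOXL2 being the exception. ACGTG occurred in 3 of these 9 genes, the same 3 that rose, and GCGTG in 4 (LOX, LOXL3, PLOD1 and PLOD2). The windows of P4HA2 and LOXL3, which fell, lie inside the annotated span of their genes and not at its outer end. So do the LOX windows other than the printed one, and the GCGTG counted for LOX lies only in those inner windows. The genes are thus not compared at like starts, and the match of sequence and direction was not tested. Of the 35116 windows of the same length over all genes, 18.5% held ACGTG, 32.2% held GCGTG and 43.2% held at least 1 of them. By window, 5 of the 12 held ACGTG and 5 held GCGTG, and 3 of the 12 belong to LOX. The inner LOX windows overlap and hold the same ACGTG and the same GCGTG, so each of these sites enters the totals more than once. These background shares are per window and cannot be set against the counts of genes, since a gene with several windows has more chances of a match. A match is a description of these letters and does not show a binding site, and its absence says nothing of the factor.

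P4HA1 and P4HA2 are the alternative catalytic alpha subunits of the prolyl hydroxylase, each of which pairs with the beta subunit P4HB. P4HA1 (ENSG00000122884.12, chr10:73007217-73096866, minus strand) was at 99.9, 96.2, 101 and 94.1 CPM in LG1 to LG4 and at 138, 130.2, 129.9 and 135 CPM in HG1 to HG4. Every high glucose library was above every low glucose library, and the means rose 1.37-fold, from 97.8 ± 3.13 to 133 ± 4.13 CPM (SD, n = 4 each; log2 change 0.45, SE 0.03; limma adjusted p = 3.34e-05). P4HA2 (ENSG00000072682.18, chr5:132190147-132227853, minus strand) was at 135, 138, 138 and 129 CPM in LG1 to LG4 and at 91.97, 87.0457, 88.7 and 87.3 CPM in HG1 to HG4. Here every high glucose library was below every low glucose library, and the means fell 1.52-fold, from 135 ± 4.31 to 88.7 ± 2.27 CPM (log2 change -0.60, SE 0.03; limma adjusted p = 7.11e-06). Within a library, the ratio of P4HA1 to P4HA2 went from 0.724 ± 0.0196 to 1.5 ± 0.0355. On the log2(CPM + 1) scale the ratio was 2.06-fold higher at high glucose, and all 4 high glucose libraries were above the low glucose libraries (exact 2-sided permutation test, p = 0.0286, the smallest that 70 assignments allow; adjusted p = 0.0286 over 14 ratios).

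Per kilobase of the canonical transcript, P4HA1 rose from 35.6 ± 1.14 to 48.7 ± 1.51 CPM while P4HA2 fell from 29.7 ± 0.948 to 19.5 ± 0.4996 CPM. P4HA1 thus held 54.5% of the summed level of the pair at low and 71.4% at high glucose. The sum itself ranged from 62.7 to 67.02 CPM per kilobase at low glucose and from 66.6 to 70.7 at high glucose, and the ranges overlapped. The isoform P4HA3, which is not among the 10 enzymes, fell from 20.9 ± 1.89 to 7.06 ± 1.14 CPM (log2 change -1.45; limma adjusted p = 5.83e-05). With it counted, P4HA1 held 47.8% and 68.2%, P4HA2 39.8% and 27.4%, and P4HA3 12.4% and 4.4% of the family. The direction of the mean sum depended on P4HA3. It went from 65.3 to 68.2 CPM per kilobase without P4HA3 and from 74.6 to 71.3 with it, and the ranges overlapped in both cases. The beta subunit P4HB, a protein disulfide isomerase, fell from 1529 ± 24.3 to 1159 ± 65.6 CPM (log2 change -0.40; limma adjusted p = 4.55e-04). Of the P4HA2 transcript, 12.1% overlaps P4HA2-AS1 on the opposite strand, a gene listed at 0 in all 8 libraries, and 6.29% of its 31-base words occur in another gene.

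The 3 lysyl hydroxylases differ in their targets. PLOD2 hydroxylates the lysines of the chain ends, the telopeptides, from which the stable hydroxylysine-derived crosslinks form, PLOD1 acts mainly on the helix, and PLOD3 also carries glycosyltransferase activity. PLOD2 (ENSG00000152952.12, chr3:146069440-146161184, minus strand) was at 250.1, 246, 258 and 252 CPM in LG1 to LG4 and at 357, 353, 368 and 389 CPM in HG1 to HG4. The lowest high glucose library was well above the highest low glucose library, and the means rose 1.46-fold, from 252 ± 4.87 to 367 ± 16.3 CPM (log2 change 0.54, SE 0.03; limma adjusted p = 2.09e-05). PLOD1 (ENSG00000083444.17, chr1:11934717-11975537, plus strand) was at 309, 319, 313 and 304 CPM in LG1 to LG4 and at 195, 187, 198 and 182 CPM in HG1 to HG4. It was lower in every high glucose library, and its mean fell 1.64-fold, from 311 ± 6.35 to 190.3 ± 7.18 CPM (log2 change -0.71, SE 0.03; limma adjusted p = 4.62e-06). Of the genes tested, 90.03% had a lower log2 change than PLOD2 and 7.23% a lower one than PLOD1.

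PLOD3 (ENSG00000106397.12, chr7:101205984-101217581, minus strand) was at 151, 161, 155 and 160.03 CPM in LG1 to LG4 and at 161, 143, 143 and 128 CPM in HG1 to HG4. HG1, the library that stood apart by transcript length, was the highest of all 8, and the other high glucose libraries were below every low glucose library. With all libraries the log2 change was -0.13 (95% interval -0.28 to 0.03; limma adjusted p = 0.160). Without HG1 it was -0.18 (limma adjusted p = 0.0191), so the call for PLOD3 rests on that library.

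The order of PLOD1 and PLOD2 was reversed between the groups. The ratio of PLOD1 to PLOD2 was 1.24 ± 0.0391 in CPM at low and 0.52 ± 0.0359 at high glucose, a 2.37-fold difference on the log2(CPM + 1) scale with no overlap (exact 2-sided permutation p = 0.0286, adjusted p = 0.0286 over 14 ratios). Per kilobase of the canonical transcript, PLOD1 was at 105 ± 2.13 and PLOD2 at 67.1 ± 1.3 CPM at low glucose, and they were at 63.9 ± 2.41 and 97.8 ± 4.34 CPM at high glucose. The share of PLOD2 in the summed level of the family was 29.5% at low and 46.0% at high glucose, the PLOD1 share went from 46.0% to 30.0%, and the PLOD3 share was 24.5% and 24.0%. Which isoform is the more abundant per kilobase at high glucose depends on the length used. With the longest PLOD2 transcript of 5867 bases in place of the canonical one of 3749 bases, PLOD2 was at 62.5 and PLOD1 at 63.9 CPM per kilobase, with overlapping ranges, and the PLOD2 share was 21.1% at low and 35.3% at high glucose. The summed level of the 3 enzymes was 227 ± 2.76 CPM per kilobase at low and 213 ± 4.55 at high glucose. None of the PLOD transcripts overlaps another annotated gene.

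LOX is the founding oxidase of its family and is cut from an inactive precursor by BMP1. LOX (ENSG00000113083.14, chr5:122063195-122078259, minus strand) was at 5.001, 5.22, 6.201 and 4.52 CPM in LG1 to LG4 and at 10.7, 10.92, 10.97 and 11.02 CPM in HG1 to HG4. All 4 high glucose libraries lay close together and above the low glucose libraries, which spread more widely. The means rose 2.08-fold, from 5.23 ± 0.708 to 10.91 ± 0.127 CPM (log2 change 0.94, SE 0.08; limma adjusted p = 1.04e-04), and 97.2% of genes had a lower log2 change. On the opposite strand, SRFBP1 covers 2.72% of the LOX transcript and rose from 9.07 ± 0.635 to 12.2 ± 1.28 CPM (limma adjusted p = 0.0071).

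LOXL1, which acts on elastic fibers together with fibulin-5, moved the other way. LOXL1 (ENSG00000129038.16, chr15:73926462-73952136, plus strand) was at 29.6, 28.7, 28.03 and 33.4 CPM in LG1 to LG4 and at 12.9, 13.4, 12.4 and 10.9 CPM in HG1 to HG4. The highest high glucose library was below the lowest low glucose library, and the mean fell 2.41-fold, from 29.9 ± 2.37 to 12.4 ± 1.07 CPM (log2 change -1.21, SE 0.08; limma adjusted p = 2.08e-05). Its called log2 change of at least 1 in size was shared by 4.76% of all genes, and 1.13% of genes had a lower log2 change. LOX passed this size with a pseudocount of 0.1 (1.05) and without LG3 (1.01). The antisense gene LOXL1-AS1 overlaps 9.89% of its transcript and was at 10.4 ± 1.4 and 8.39 ± 0.948 CPM (limma adjusted p = 0.0863).

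LOXL2, which oxidizes collagen IV of basement membranes, was the most abundant oxidase by far. LOXL2 (ENSG00000134013.15, chr8:23296897-23404120, minus strand) was at 212.5, 229, 225 and 218 CPM in LG1 to LG4 and at 192, 189, 200.7 and 187 CPM in HG1 to HG4. The groups were apart by a narrow margin, and the mean fell 1.15-fold, from 221 ± 7.18 to 192 ± 5.95 CPM (log2 change -0.20, SE 0.03; limma adjusted p = 0.00172). LOXL3 (ENSG00000115318.12, chr2:74532258-74555702, minus strand) was at 7.98, 6.92, 6.63 and 7.09 CPM in LG1 to LG4 and at 4.95, 3.85, 4.55 and 4.45 CPM in HG1 to HG4. Its groups did not overlap either, and its mean fell 1.61-fold (log2 change -0.58, SE 0.09; limma adjusted p = 0.00123). DOK1 and HTRA2 cover 29.7% of the LOXL3 transcript on the opposite strand, and DOK1 fell from 19.7 ± 1.55 to 8.31 ± 1.11 CPM. Whether the counting used the strand is not given in the sources used here, and the part of these neighbors in the LOXL3 value was not tested.

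LOXL4 (ENSG00000138131.4, chr10:98247690-98268194, minus strand) was listed at 0 in LG1 to LG3 and at 0.0728 CPM in LG4, and at 0, 0.239, 0 and 0.0889 CPM in HG1 to HG4. All of these values are at or under the worth of 3 reads, so that a difference in LOXL4 was not detectable at this depth (limma adjusted p = 0.401), and no fold is given.

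**Figure D2:**
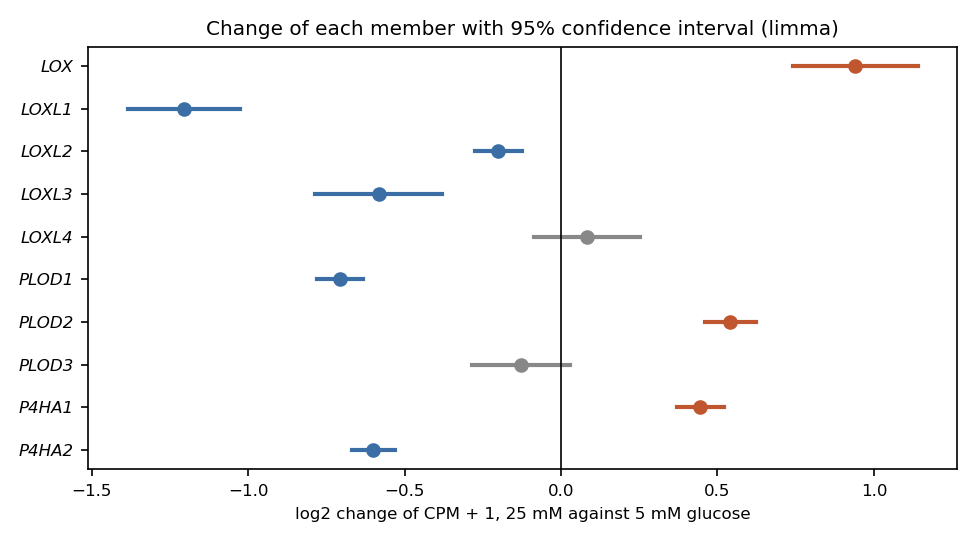
Change of each enzyme on the log2(CPM + 1) scale, 25 mM against 5 mM glucose, with its 95% interval from limma (n = 4 libraries per group; orange higher, blue lower, grey not past the threshold). LOX, PLOD2 and P4HA1 lie to the right of 0 at 0.94, 0.54 and 0.45, LOXL1 lies farthest to the left at -1.21, and the intervals of PLOD3 and LOXL4 include 0.

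Compared per kilobase, LOXL2 made up most of the oxidase transcripts in both groups, at 59.4 ± 1.93 CPM of a summed 75.2 ± 1.62 at low glucose and at 51.7 ± 1.6 of 60.3 ± 1.76 at high glucose. The ranges of the sum, 72.9 to 76.7 and 58.4 to 62.6 CPM per kilobase, did not overlap. The share of LOXL2 was 79.1% and 85.6%, that of LOXL1 was 17.0% and 8.77%, and that of LOX was 1.37% and 3.56%. LOX and LOXL3 changed places at the low end, from 1.03 ± 0.1395 and 1.94 ± 0.158 CPM per kilobase at low glucose to 2.15 ± 0.0251 and 1.21 ± 0.123 at high glucose, with no overlap in either group. Although LOX rose, it remained far below LOXL2.

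**Figure D3:**
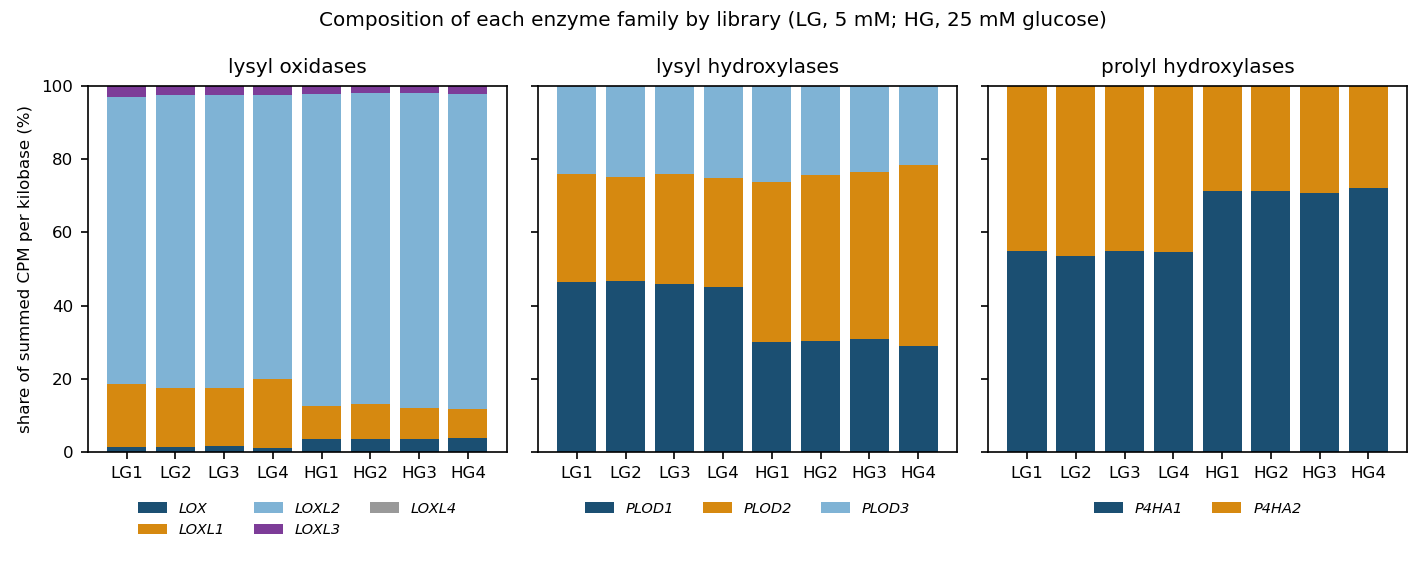
Share in percent of each enzyme in the summed CPM per kilobase of its family, in each library (LG, 5 mM; HG, 25 mM glucose; stacked bars to 100%). PLOD2 grows from a mean of 29.5% to 46.0% and P4HA1 from 54.5% to 71.4%, while LOXL2 remains the main oxidase at 79.1% and 85.6%.

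Over all 10 enzymes, the order of levels per kilobase at low glucose was PLOD1, PLOD2, LOXL2, PLOD3, P4HA1, P4HA2, LOXL1, LOXL3, LOX and LOXL4. This order uses canonical lengths, and with the longest transcript PLOD2 (42.9 CPM per kilobase) would stand below LOXL2 and PLOD3. With canonical lengths no neighbors in the order overlapped, although LOXL2 (57.1 CPM at the lowest) and PLOD3 (57.04 at the highest) nearly touched. At high glucose the order by canonical length was PLOD2, PLOD1, LOXL2, PLOD3, P4HA1, P4HA2, LOXL1, LOX, LOXL3 and LOXL4, and with the longest transcripts PLOD2 and PLOD1 were not separated. There the range of PLOD3, 45.4 to 57.2 CPM per kilobase, overlapped those of LOXL2 (50.4 to 53.9) and P4HA1 (47.4 to 50.5), so these neighbors were not separated.

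Plain CPM ratios between members of a family do not depend on how a library was scaled, while the tested log2(CPM + 1) ratios do to some extent where a gene is low. All 14 ratios separated the groups without overlap, each at the smallest exact p of 0.0286, but the 4 with LOXL4 rest on the pseudocount and are not read. Of genes with a mean of at least 5 CPM, 65% separated the groups by themselves. The share among ratios of other gene pairs was not computed, so the count is not read as a result about these families. Of the other 10, the ratio of LOX to LOXL1 differed most, at 0.177 ± 0.0355 in CPM at low and 0.884 ± 0.0875 at high glucose, 4.43-fold on the log2(CPM + 1) scale (log2 difference 2.15, or 2.32 with a pseudocount of 0.1). LOX also rose 2.21-fold against LOXL2 and 2.87-fold against LOXL3. LOXL1 fell 2.01-fold against LOXL2 and 1.54-fold against LOXL3, so the oxidases that fell did so to different extents. PLOD2 was higher against PLOD3 by 0.67 and PLOD1 lower against it by 0.58 on the log2 scale.

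**Figure D4:**
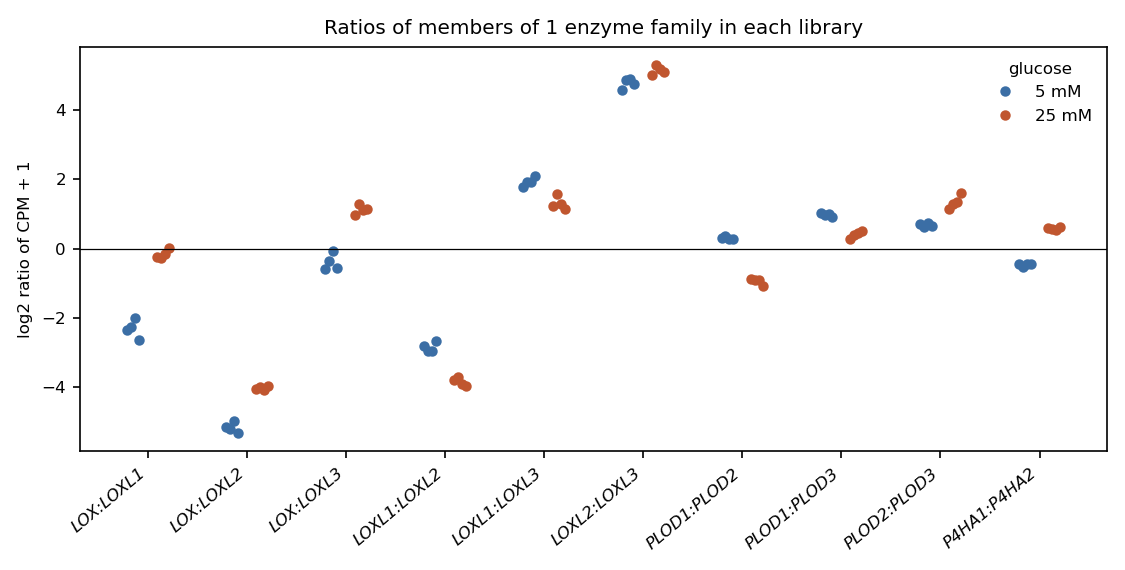
Log2 ratio of CPM + 1 between members of 1 enzyme family in each library (blue, 5 mM; orange, 25 mM glucose; n = 4 each), without the ratios to LOXL4. The groups are apart in all 10 ratios, and the ratios of PLOD1 to PLOD2 and of P4HA1 to P4HA2 lie on opposite sides of 0 in the 2 groups.

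The substrates, helpers and regulators of these enzymes were counted in lists compiled from general knowledge. They are to be read against the 46.8% of all genes that passed, and the 66.9% at 5 CPM or more (33.6% higher, 33.3% lower). Without regard to direction, the counts called for copper supply, cofactor supply, oxygen sensing, matrix partners and hypoxia targets are at or near these shares. By direction they are not all so. Hypoxia targets were called higher in 13 and lower in 1 of 23, cofactor supply in 6 and 2 of 12, and matrix partners in 1 and 6 of 12. No list was tested as a set, and nothing particular to these lists is read from the totals. Of 18 collagen chain genes, 13 fell, 2 rose (COL8A1 and COL16A1, named after their values were seen) and 3 did not pass, with a median log2 change of -0.71 against -0.0092 for all genes. COL1A2, a chain of fibrillar collagen I, fell from 18.7 ± 0.586 to 4.96 ± 0.688 CPM, COL5A2 of collagen V from 1008 ± 21.2 to 599 ± 26.9 CPM, and COL4A2 of basement membrane from 2012 ± 85.0 to 988 ± 51.8 CPM. The rises of LOX, PLOD2 and P4HA1 were thus measured beside lower levels of most of their substrates, and the collagens fell beside the fibroblast markers given above. Of 20 other genes of collagen folding, modification and export, 13 fell, 2 rose and 5 did not pass, with a median of -0.38. CRTAP, a partner of prolyl 3-hydroxylase, fell from 361 ± 2.02 to 191 ± 8.98 CPM and the prolyl isomerase FKBP7 from 25.2 ± 1.82 to 12.03 ± 0.793 CPM. FKBP10, a chaperone of PLOD2, fell from 1.7 ± 0.657 to 0.737 ± 0.0812 CPM (limma adjusted p = 0.0166), and the collagen chaperone SERPINH1 was at 23.95 ± 3.96 and 24.9 ± 1.59 CPM (limma adjusted p = 0.716).

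Of 10 genes listed for procollagen processing, 8 were in the table, of which 5 fell, 2 rose and 1 did not pass, with a median log2 change of -0.59. BMP1, the activator of LOX, fell from 135 ± 3.22 to 77.2 ± 4.96 CPM (log2 change -0.80; limma adjusted p = 1.53e-05), and its enhancer PCOLCE from 837 ± 26.8 to 330.4 ± 45.4 CPM. TLL1, a related proteinase (named after its values were seen), rose from 11.3 ± 1.22 to 18.2 ± 1.3 CPM (limma adjusted p = 6.36e-04). Among 12 matrix partners of the oxidases, 6 fell, 1 rose and 5 did not pass, and FBLN5, the fibulin-5 that binds LOXL1, fell from 62.04 ± 1.9 to 37.3 ± 1.34 CPM. Of 11 copper supply genes, 3 rose, 2 fell and 6 did not pass, a total near the 46.8% of all genes that passed. CCS, the copper chaperone of superoxide dismutase, fell from 8.43 ± 0.618 to 4.22 ± 0.365 CPM, and ATP7A, which loads copper into secreted oxidases, was at 28.7 ± 3.85 and 28.5 ± 4.16 CPM (limma adjusted p = 0.984; named after its values were seen). The copper importer SLC31A1 rose from 68.4 ± 2.01 to 83.6 ± 4.96 CPM, and the related SLC31A2 from 4.78 ± 1.01 to 12.8 ± 0.828 CPM.

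Of 12 genes listed under cofactor supply, 6 rose, 2 fell and 4 did not pass. They cover the supply, use or storage of iron, 2-oxoglutarate or ascorbate, so the count does not measure supply. The transferrin receptor TFRC rose from 230.1 ± 2.78 to 391 ± 15 CPM, and isocitrate dehydrogenase IDH2 fell from 59 ± 3.5 to 24.3 ± 0.944 CPM. Of 23 hypoxia target genes other than the 10 enzymes, 13 rose, 1 fell (DDIT4, named after its value was seen) and 9 did not pass, with a median log2 change of 0.14. Among the enzymes named above as HIF targets, LOX, PLOD2 and P4HA1 rose, whereas LOXL2, PLOD1 and P4HA2 fell. HK2, a hexokinase of glycolysis, rose from 34.8 ± 0.867 to 72.4 ± 1.93 CPM and LDHA, lactate dehydrogenase A, from 546 ± 13.1 to 933 ± 32.0 CPM. Among 9 genes of oxygen sensing, 3 rose, 1 fell and 5 did not pass. That total is near the 46.8% of all genes that passed and below the 66.9% at 5 CPM or more. HIF1A rose from 174 ± 4.18 to 222 ± 16.5 CPM (log2 change 0.35; limma adjusted p = 0.00142), EPAS1, which encodes HIF-2alpha, from 65.6 ± 1.68 to 94.6 ± 5.38 CPM, and EGLN1, the prolyl hydroxylase that marks HIF for degradation, from 44.9 ± 1.98 to 68.4 ± 4.19 CPM. The HIF inhibitor HIF1AN fell from 52.9 ± 1.19 to 41.2 ± 1.32 CPM. Transcript levels do not measure HIF protein. Of 14 other 2-oxoglutarate oxygenases, which act in the nucleus, 8 rose, 3 fell and 3 did not pass, among them the lysyl hydroxylase JMJD6 with 56.4 ± 1.55 and 129 ± 4.41 CPM. SLC2A1 and EGLN3 each stand in 2 of these lists.

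**Figure D5:**
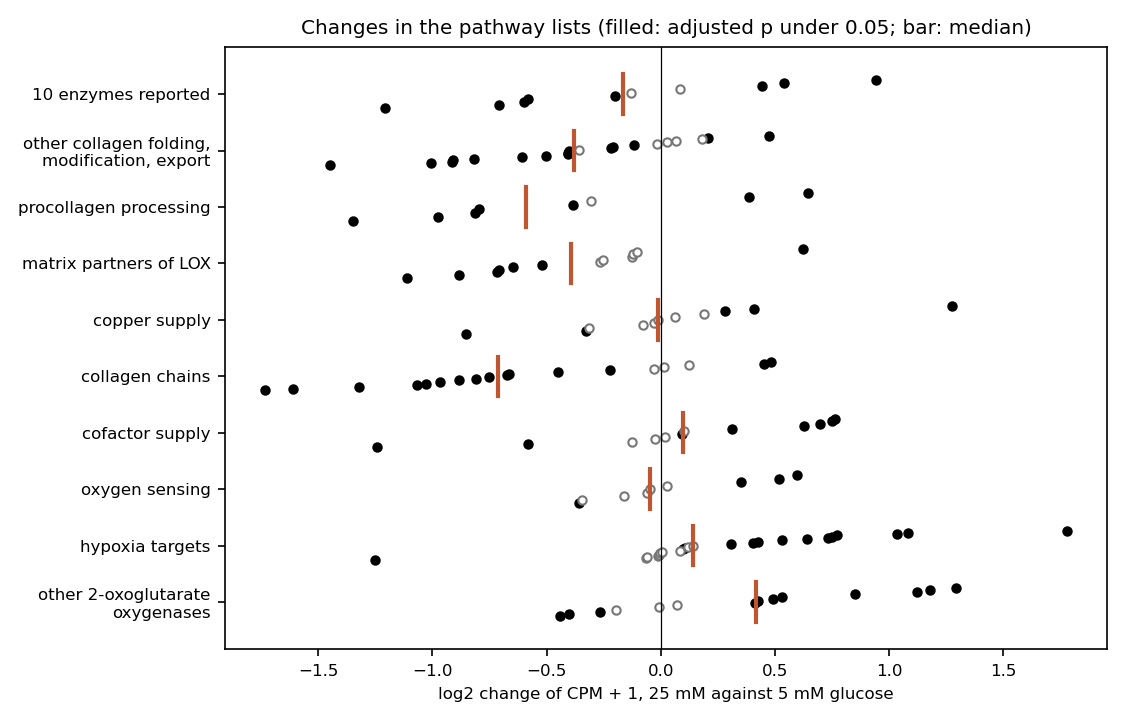
Log2 change of CPM + 1 at 25 mM against 5 mM glucose for every gene of the 10 enzymes and of the 9 lists (filled, adjusted p under 0.05; open, not past it; orange bar, median of the list). The collagen chains have the lowest median at -0.71, and the 2-oxoglutarate oxygenases outside the collagen pathway the highest at 0.42.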

How the data were processed

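RNA of 8 libraries of MDA-MB-157 cells, 4 per group by the sample titles, was sequenced on an Illumina HiSeq. The authors deposited 1 table of CPM values (counts per 1000000 reads), scaled with TMM factors in edgeR. The submitters' processing notes name hg38, whereas the study's methods name hg19, TopHat and DESeq2. The counting tool and its use of strand are not given in the sources used here. Only 73.2% to 74.6% of values came out as whole reads (tolerance 0.02), so no count test was run. Pseudoautosomal Y copies (18 lines) were left out, and the remaining 21059 genes were tested, 856 of them at 0 in all libraries.

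log2(CPM + 1) was compared with limma 3.58.1 in R 4.3.3 (lmFit, eBayes with a mean-variance trend, 2-sided), with Benjamini-Hochberg adjustment over all genes. No filter was applied. Fold changes of means are on the CPM scale, and log2 changes understate the change of low genes. For ratios within a family, an exact permutation test over the libraries was used (2-sided). In data simulated with normal noise, 200 genes with a mean of at least 5 CPM were changed 2-fold. Of these, 192 were recovered, and 9 unchanged genes were called. Recovery of lower genes was not simulated, nor was a share of changed genes as large as the 46.8% that passed in the data. Canonical transcript lengths and overlaps came from GENCODE v44 on GRCh37, positions and promoters from RefSeq on GRCh38.p14, and they describe the annotation and not the alignment. Depth was estimated from the worth of 1 read, and these floors describe counting error alone, as reads are not independent molecules. The 10 enzymes and the lists were chosen with earlier results of these data known. Named genes are the 10 enzymes, at most the 3 genes of each list with the smallest adjusted p, and a few named partners. Alternatives were another pseudocount, filters on low values, other scalings, removal of the length trend, a replicate block, no variance trend, other transcript lengths and leaving out each library.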

Additional observations from a re-analysis of the deposited data

Results flagged for a closer look

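In 50 groups of 4 libraries examined for a value far from the other 3 by Dixon's ratio of gap to range, 2 stood out, where chance gives 2.5. LOXL4 was at 0.0728 CPM, about 1 read, in low glucose replicate 4 and at 0 in the other low glucose libraries. The same library had 12104248 estimated reads, against 10389649 to 10622964 in the other low glucose libraries.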

How the results depend on the processing

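The counts of 3 enzymes higher and 5 lower kept within 1.5 times, as did the count of genes called, in all 48 recomputed values. With each library left out in turn, 8899 to 10156 genes were called, against 9849. The change of PLOD3 ranged from -0.18 to -0.0741 and passed only without high glucose replicate 1 (adjusted p 0.0191, range over all alternatives 0.0191 to 0.309). The other 9 enzymes kept direction and side of the threshold in every alternative that tested them. Of 150 recomputed ratio values, 147 were counted as unchanged. Only those with a pseudocount of 0.1 or with the length trend removed were set against the threshold. Ratios without a library were judged by whether the difference stayed within its pooled SD, and those with a replicate block were not tested. With a pseudocount of 0.1, the ratios to LOXL4 no longer passed for LOX (0.58), LOXL2 (-0.67) and LOXL3 (-1.15), where LOXL4 is at or under the floor in all libraries. With the longest transcripts, the rise of the PLOD2 share was 14.1 percentage points instead of 16.5, and the PLOD3 share moved by 1.32 instead of -0.511. Counting P4HA3, chosen after seeing the data, gave 20.5 points for P4HA1 and -12.4 for P4HA2, against 16.8 and -16.8. The leave-one-out range was -1.27 to 0.28 points for PLOD3. Of 288 list counts, 8 moved by over 1.5 times, all counts of 2 or fewer. Whether the numbers in the titles pair the libraries is not known. Same-number correlations of the deviations from the group means were 0.0692, -0.028, 0.0136 and -0.0403, which cannot settle it with 4 libraries per group. With a replicate block, 8921 genes were called and 3 enzymes were higher and 5 lower. Depth limits LOXL4, LOX and LOXL3 most, at 3 reads per 0.212 to 0.267 CPM.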
